A study of Gallus gallus with 14 samples.

Results

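The clones described here are 4 of the 12846 cDNA clones printed on a chicken EST array, and they occupy 12 of its 26419 spots that are not controls. They were chosen by the names that the study gave them. Of these, pat.pk0049.c11f is integrin beta 5, pat.pk0049.h10 is the beta chain of the actin-capping protein, pat.pk0070.e4f is Tara and pgn1c.pk003.h11 is Gal-1 alpha. The IDs of the deposited spot files were matched to these clones without a trailing f. The study picked the clones on these same arrays, so that its choice is not independent of the values below. RefSeq's gene table for GRCg7b holds all 4 genes, as ITGB5, CAPZB, TRIOBP and AvBD1. The last of them lists GAL 1 among its synonyms and is a beta-defensin, so by its gene name Gal-1 alpha belongs to host defence and not to adhesion or the cytoskeleton.

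Integrins are pairs of an alpha and a beta chain that span the membrane, hold the cell to its matrix and pass force and signals to actin filaments inside it. The beta 5 chain pairs with alpha v and binds vitronectin, and integrins of this kind gather in flat clathrin lattices at the plasma membrane and are taken up by clathrin-coated vesicles. Capping protein, a heterodimer of an alpha and a beta chain, closes the fast-growing end of the actin filament and so stops its growth. Tara, a product of the TRIOBP gene, binds filamentous actin and the guanine nucleotide exchange factor Trio. Beta-defensins are small cationic peptides that kill microbes, and the chicken ones are made in heterophils and epithelia.

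The RNA came from 3 lines. DKO-R and DKO-S cells carry deletions of both endogenous genes of the clathrin heavy chain and live on a clathrin transgene under a Tet-Off promoter, which doxycycline (DOX) turns off. DKO-R is a line derived from DKO-S that is less prone to apoptosis when clathrin is lost, and each of them is a single line. DT40, the chicken pre-B lymphocyte line from which they were made, keeps its own clathrin gene and has no Tet-Off clathrin. Each line was grown as 2 cultures, lettered A and B, both with DOX and without it, and neither the labels nor the array methods give the dose or time of DOX for these extracts. The 12 extracts were set against each other on 14 arrays as 7 pairs, each pair on 2 arrays with the dyes Cy3 and Cy5 exchanged. In 1 pair DKO-R was set against DKO-S, both of culture A without DOX (the direct arrays), and in the other 6 pairs a culture with DOX was set against the culture of the same line and letter without it (the DOX arrays). No array holds DT40 together with another line.

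On 12 of the arrays 55.3 to 72.3% of the spots reached the confidence of 0.30 that was asked of a spot. The 2 others were weak, with 2.11% of spots passing in DKO-S culture A (DOX in Cy5) and 23.2% in DKO-S culture B (DOX in Cy3). All 144 values of the 12 spots passed on the 12 arrays, the lowest at a confidence of 0.44, whereas 9 of 24 passed on the weak arrays. The cell type markers that could be looked up were few. Of the B lineage, immunoglobulin J chain, XBP1 and CXCR4 were measured on all 12 arrays, and so were NK-lysin of T and NK cells, avian thymic hormone and avidin of the oviduct, so that a measured spot of these ESTs did not separate the labelled cell type from others. The median log2(Cy5/Cy3) over the 12 arrays was 2.11 for NK-lysin, 2.18 for avian thymic hormone, 1.42 for avidin and 1.38 for XBP1. It was 0.65 for CXCR4 and 0.05 for immunoglobulin J chain.

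The first quantity compared is log2(Cy5/Cy3) of a clone, centred on the median of its array, called the dye ratio below. When a ratio follows the extracts, it changes sign as the dyes are exchanged. For the 4 clones it did not. Of their 144 spot values on the 12 arrays, 140 were brighter in Cy5 than in Cy3, whichever extract Cy5 held. Averaged over the spots of the clone, integrin beta 5 was brighter in Cy5 on 12 of 12 arrays, with a dye ratio of 0.31 at the lowest, 1.83 at the median and 2.35 at the highest. The actin-capping protein had 0.22, 1.01 and 1.39 and Tara 0.28, 1.24 and 2.29, also above 0 on 12 of 12 arrays. Gal-1 alpha had -0.09, 1.28 and 2.43 and was above 0 on 11 of 12. On the median array these values stood at the 99.2nd percentile of all clones for integrin beta 5, the 96.8th for the actin-capping protein, the 98.6th for Tara and the 98.5th for Gal-1 alpha.

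**Figure D1:**
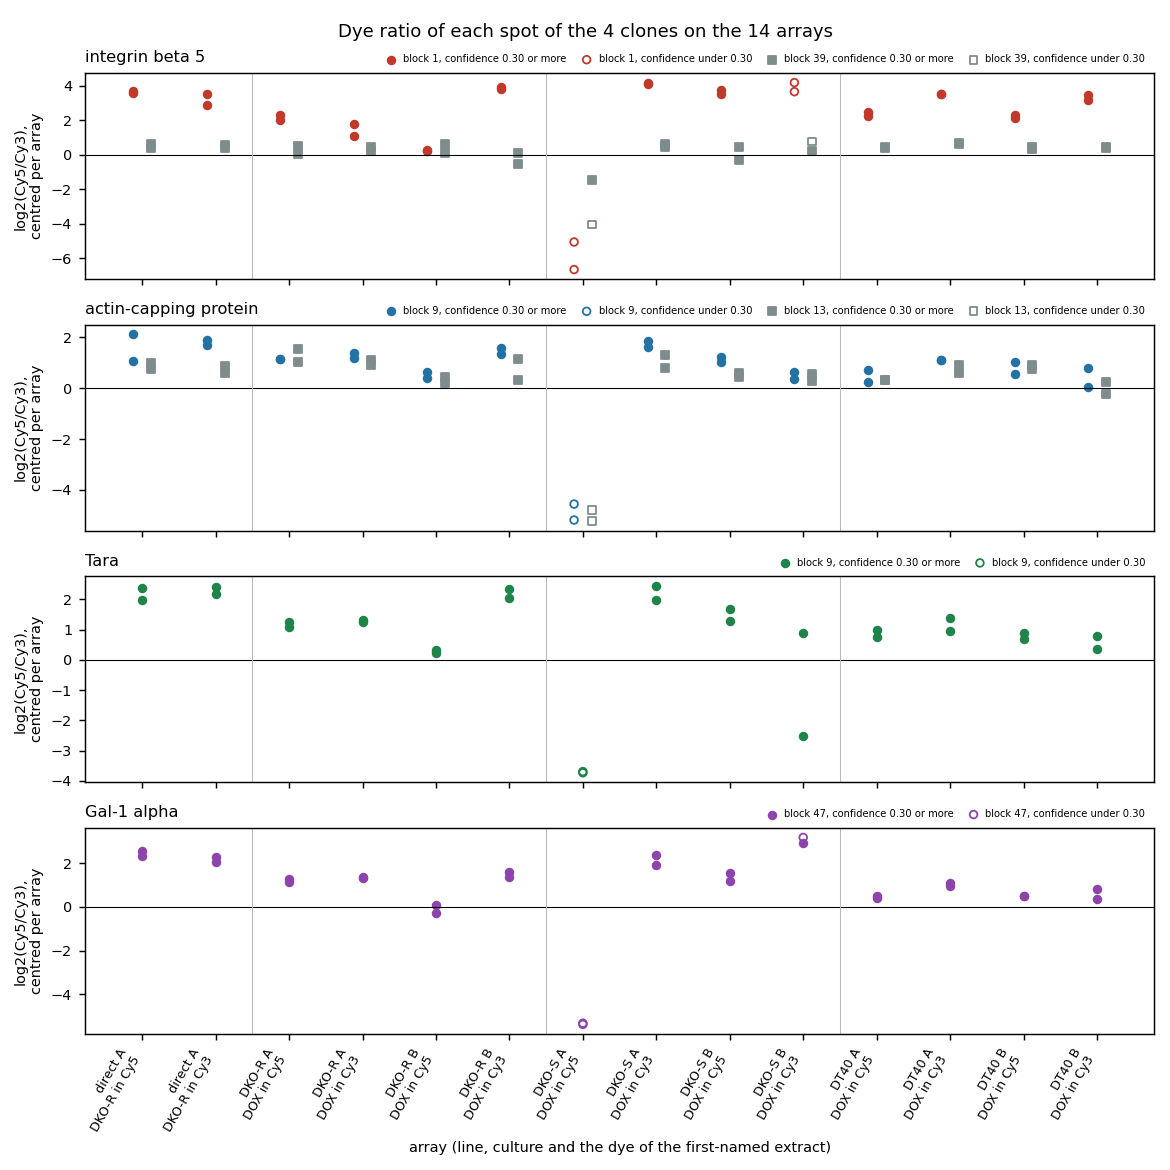
Dye ratio of every spot of the 4 clones on the 14 arrays, 1 panel per clone, in log2(Cy5/Cy3) centred on the array. Symbols separate the printed blocks, and open symbols are spots under the confidence of 0.30. On the 12 arrays other than the weak DKO-S ones 140 of 144 values lie above 0, and the open symbols of the weak array of DKO-S culture A lie far below it.

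On the direct arrays the question was whether DKO-R and DKO-S cells differ in these genes before clathrin is lost. With DKO-R in Cy5, the array gave log2(DKO-R/DKO-S) of 2.10 for integrin beta 5, 1.23 for the actin-capping protein, 2.18 for Tara and 2.43 for Gal-1 alpha. With DKO-R in Cy3, the same extracts gave -1.85 for integrin beta 5, -1.26 for the actin-capping protein, -2.29 for Tara and -2.18 for Gal-1 alpha. Each array alone would thus have placed all 4 clones far from 0, in opposite directions. The mean of both orientations was 0.12 for integrin beta 5 (SE 0.70, 95% interval -1.46 to 1.70) and 0.13 for Gal-1 alpha (SE 0.26, -0.47 to 0.72). The actin-capping protein had a mean of -0.02 (SE 0.24, -0.57 to 0.54) and Tara one of -0.06 (SE 0.29, -0.73 to 0.61). In limma with Benjamini-Hochberg adjustment over 5829 clones and a threshold of 0.15, 0 of the 4 clones passed (adjusted p 0.939 to 0.997), against 0.137% of all clones. Over all clones 570 had an unadjusted p under 0.05, none of the 4 clones among them. For every one of the 4 clones the interval reaches at least to -0.47 below 0 and to 0.54 above it. Differences of this size were thus not excluded with 1 pair of extracts. The intervals take their spread from the DOX pairs and are not limits of detection.

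Other clones that the study picked give the scale. Immunoglobulin J chain and MAP2K3 were taken for it because they kept their sign between dyes. Their same sign on the direct arrays was thus fixed by the choice and is no result. Immunoglobulin J chain, which links the subunits of polymeric antibodies, gave a mean log2(DKO-R/DKO-S) of 2.88 (adjusted p 0.00312 in limma), and MAP2K3, a kinase upstream of p38, gave 1.04 (adjusted p 0.186), with both orientations of the same sign. The call of J chain was lost, with 0 of all clones passing, without either DKO-R culture, without either DT40 culture, with the culture as a block, with no confidence filter or with the deposited table. The direction of the direct arrays is not settled by this. On the DOX arrays, within one dye, DKO-R stood below DKO-S for J chain in 4 of 4 comparisons (-2.78 to -2.59) and MAP2K3 likewise in 4 of 4 (-1.31 to -0.32), so that the labels of the direct arrays and those of the DOX arrays oppose each other for these clones. The values near 0 of the 4 clones stay near 0 if the direct arrays are turned round. Of the other adhesion, migration and cytoskeleton genes picked by the study, the chemokine CCL17, the chemokine receptor CXCR4, the tetraspanin CD63, the membrane protein CKAP4 and the neurotrophin signalling scaffold KIDINS220, 0 of 5 passed (median 0.03, range -0.28 to 0.17). Of the host defence genes NK-lysin, complement C4, avidin and an LY6E-like gene, 0 of 4 passed (median -0.07, range -0.10 to 0.07). The median over all clones tested was -0.01.

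**Figure D2:**
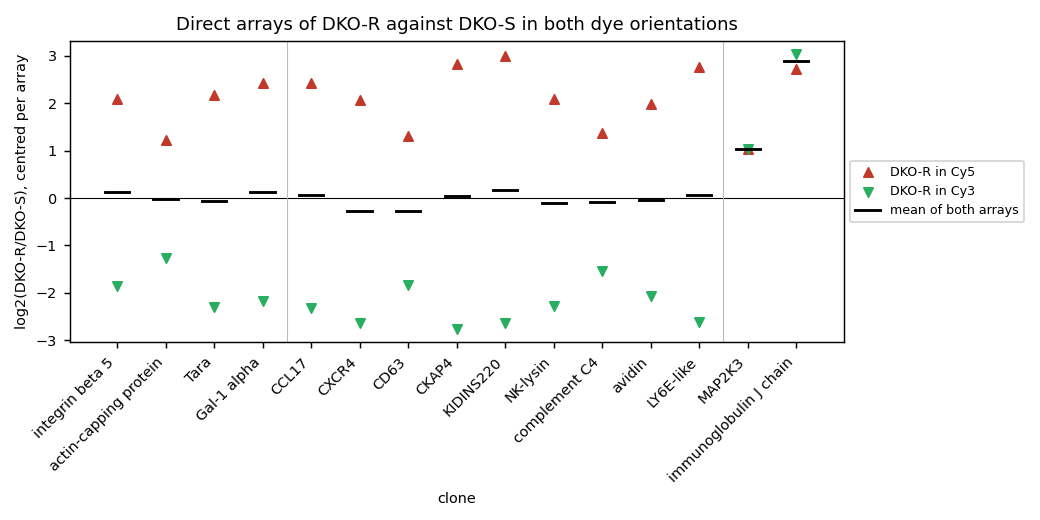
log2(DKO-R/DKO-S) of named clones on the direct arrays, with DKO-R in Cy5 (upward triangles), with DKO-R in Cy3 (downward triangles) and as the mean of both (bars). The 4 clones described here and the 9 listed beside them are positive in one orientation and negative in the other. MAP2K3 and immunoglobulin J chain keep their sign, for which they were chosen as a scale.

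The dye ratio itself was then tested on the DOX arrays, where the extracts cancel in the mean of both orientations. All 4 clones passed at an adjusted p under 0.05 in limma, against 2.84% of 8087 clones. The dye ratio was 1.15 for integrin beta 5 (SE 0.15, adjusted p 0.00136), 0.75 for the actin-capping protein (SE 0.11, adjusted p 0.0043), 0.90 for Tara (SE 0.14, adjusted p 0.00619) and 1.08 for Gal-1 alpha (SE 0.20, adjusted p 0.0223). The values stayed above 0 but all 4 calls were lost with no confidence filter (0.63 to 1.38, adjusted p 0.0755 to 0.778) and with the deposited table (0.50 to 1.64, adjusted p 0.134 to 0.47). Gal-1 alpha also lost its call without DKO-R culture A (adjusted p 0.13) or B (adjusted p 0.072), and Tara without DKO-R culture A (adjusted p 0.0516). Of the 230 clones that passed, 213 were brighter in Cy5. The median over all clones was -0.02. Of the adhesion, migration and cytoskeleton list 4 of 5 passed with brighter Cy5 (median 1.51), and of the host defence list 4 of 4 (median 1.44).

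The 4 clones also ranked high on the direct arrays. The study chose them as differing between DKO-R and DKO-S. Their values on the direct arrays, also when set against the DOX arrays, are thus not independent of that choice. In the 5821 clones measured in the direct pair and in all pairs of DT40 and DKO-R, integrin beta 5 ranked 29 by its dye ratio on the 8 DT40 and DKO-R arrays (mean 1.36 ± 0.36, SD over 4 pairs) and 53 on the direct arrays (1.97). Tara ranked 58 (1.05 ± 0.26) and 32 (2.24), Gal-1 alpha 94 (0.82 ± 0.32) and 28 (2.30), and the actin-capping protein 104 (0.78 ± 0.29) and 149 (1.25). A dye ratio of 1 or more was reached by 65 clones (1.12%) on the DT40 and DKO-R arrays and by 205 (3.52%) on the direct arrays, and all 65 were among the 205. The correlation between both sets across clones was 0.79, a description over clones that share their print and their dyes. The dye ratio on the direct arrays minus that on the DOX arrays was 0.82 (integrin beta 5), 0.50 (actin-capping protein), 1.33 (Tara) and 1.22 (Gal-1 alpha). In limma 0 of the 4 passed for that difference (adjusted p 0.696 for Tara and 0.999 for the others), against 0% of 6705 clones, of which 270 had an unadjusted p under 0.05. Tara and Gal-1 alpha were among the 270.

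**Figure D3:**
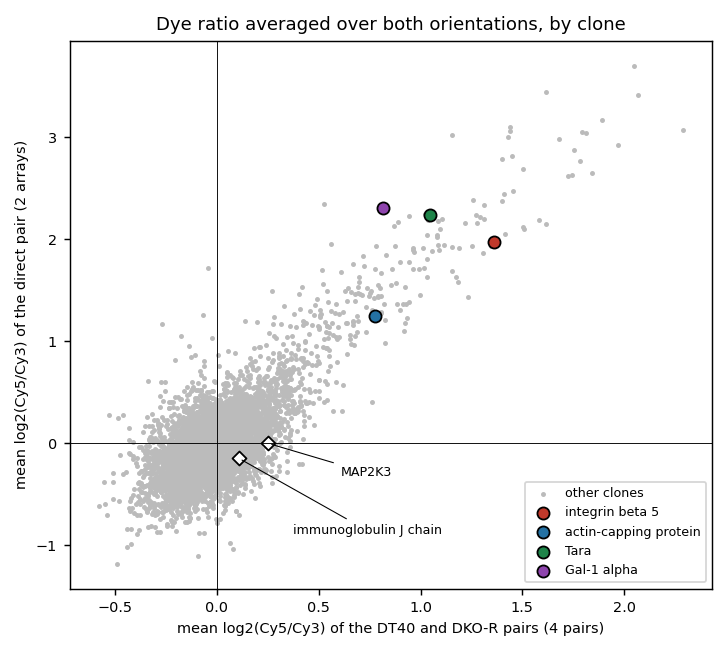
Dye ratio of 5821 clones averaged over both orientations, on the 8 DT40 and DKO-R arrays (horizontal axis) and on the direct arrays (vertical axis), in log2(Cy5/Cy3). The 4 clones, in colour, lie in the upper right arm with ranks of 29 to 104 and 28 to 149. MAP2K3 and immunoglobulin J chain (diamonds), chosen because they kept their sign between dyes, lie near 0 on both axes.

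Most spots printed around those of the clones had a dye ratio near 0. The spots of Tara had mean dye ratios of 1.39 and 1.37, and their neighbouring spots had medians of -0.04 and 0.05. The spots of Gal-1 alpha had 1.28 and 1.16, against neighbours with medians of 0.16 and -0.02. Those of the actin-capping protein ranged over 0.69 to 1.19, and the medians of their neighbours over -0.12 to 0.10. Around the spots of integrin beta 5 the medians of the neighbours were -0.11 and 0.09 in block 1 and 0.16 and -0.07 in block 39. Single neighbours reached higher, up to 1.30 beside Gal-1 alpha, 1.09 beside block 1 and 0.65 beside block 39 of integrin beta 5, 0.84 beside the actin-capping protein and 0.28 beside Tara. All 4 clones were also far brighter than the blank spots in both dyes. Tara was the dimmest, at 5.02 to 29.2 times the blank median in Cy3 and 5.05 to 64.3 times in Cy5. Gal-1 alpha stood at a median of 52.4 times the blank in Cy3 and 70.9 times in Cy5.

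Many clones of high dye ratio belong to the libraries of these clones. A dye ratio of 1 or more on the DOX arrays was found in 6.04% of 844 clones whose ID begins with pat, as the IDs of integrin beta 5, the actin-capping protein and Tara do, and in 3.73% of 509 clones whose ID begins with pgn1c, as that of Gal-1 alpha does. It was found in 0.0574% of 5230 ChEST clones, in 0.0794% of 1259 DT40subNB clones, in 2.14% of 234 dkfz426 clones and in 0.977% of all 8087. Most clones of both libraries were thus below 1. Integrin beta 5 (1.15) and Gal-1 alpha (1.08) are themselves counted at 1 or more. Tara (0.90) and the actin-capping protein (0.75) are not. On the plate 0049 of pat, which holds both integrin beta 5 and the actin-capping protein, 4 of 24 clones were at 1 or more, on plate 0070, which holds Tara, 4 of 25, and on plate 003 of pgn1c, which holds Gal-1 alpha, 9 of 212. The part of the print or the preparation of a plate in the dye ratio was not tested.

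Integrin beta 5 and the actin-capping protein are each printed in 2 blocks, with 2 spots in each, and the printings of integrin beta 5 did not give the same result. In block 1 its dye ratio on the 12 arrays was 0.25 at the lowest, 3.26 at the median and 4.15 at the highest. In block 39 it was -0.23, 0.39 and 0.64. The spots of one block were alike, with means of 2.81 and 2.84 in block 1 and of 0.44 and 0.26 in block 39. The gap of 2.47 between the means was the widest of the 204 clones measured in 2 blocks, whose gaps had a median of 0.18 and a 95th percentile of 1.01. XBP1, a transcription factor of plasma cells, came second, with 2.54 in one block and 0.28 in the other. The printings were chosen for attention after their values were seen. In limma with printed blocks kept apart (2.89% of 8386 features passing), block 1 had a dye ratio of 2.40 on the DOX arrays (SE 0.19, adjusted p 0.000283) and block 39 of 0.16 (SE 0.12, adjusted p 0.549).

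The dye in which the printings lay apart differed between the DT40 arrays and the DKO arrays. No array holds both, so line and set of arrays cannot be told apart here. Both arrays of a dye swap are counted below, and they hold the same extracts. In Cy5 the normalised log2 intensity of integrin beta 5 was 14.15 ± 0.48 in block 1 and 12.37 ± 0.95 in block 39 (SD over 12 arrays). In Cy3 it was 11.42 ± 0.90 in block 1 and 12.07 ± 0.90 in block 39. On 7 of the 8 DKO arrays the gap between the printings was wider in Cy5, where block 1 exceeded block 39 by 0.62 to 3.03 over the 8 arrays. On 4 of 4 DT40 arrays it was wider in Cy3, where block 1 minus block 39 was -2.75 to -1.02. On the direct array whose Cy5 held DKO-R, the spots of block 1 read 5636 and 4297 in Cy3 and 28503 and 23468 in Cy5, before normalisation, and those of block 39 read 5366 and 5942 in Cy3 and 3474 and 3245 in Cy5. On the DT40 array of culture B with DOX in Cy3, those of block 1 read 1851 and 1690 in Cy3 and 16538 and 18019 in Cy5, and those of block 39 read 12325 and 14352 in Cy3 and 15525 and 18900 in Cy5. The actin-capping protein differed less, with a median dye ratio of 1.12 in block 9 and 0.75 in block 13, and both printings passed on the DOX arrays (0.88, SE 0.10, adjusted p 0.0011, and 0.62, SE 0.12, adjusted p 0.0217). Both printings of a clone carry the same ID in the files, and whether they hold the same DNA was not tested.

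**Figure D4:**
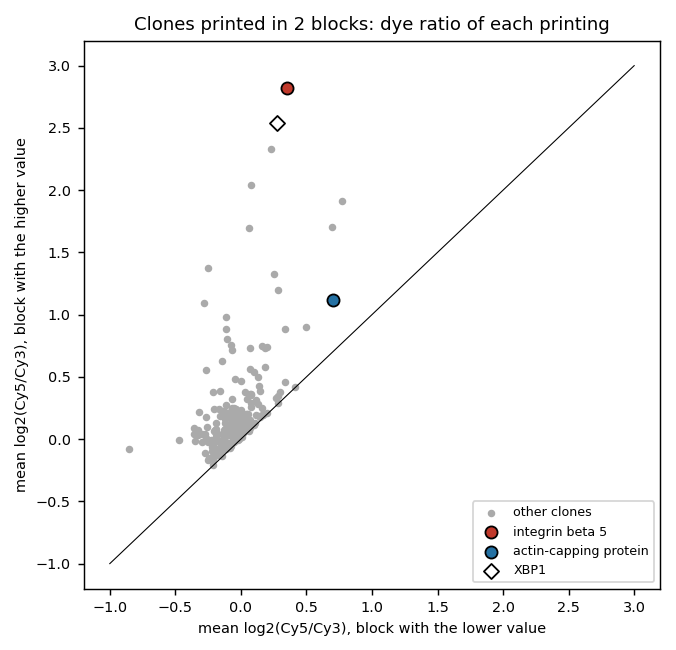
Mean dye ratio over the 12 arrays of each clone printed in 2 blocks, in log2(Cy5/Cy3), with the higher block on the vertical and the lower block on the horizontal axis. The diagonal marks equal values. Integrin beta 5 (2.82 and 0.35) lies farthest from it, ahead of XBP1, and the actin-capping protein lies close to it.

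The level of each gene in the 12 extracts was taken from the separate channels, as normalised log2 intensity averaged over both dyes. For DKO-R and DKO-S culture A without DOX it also averages the direct arrays. The labels of those arrays oppose those of the DOX arrays for J chain and MAP2K3. If either set of labels is swapped, these levels mix both lines, which was not settled. DT40 and the DKO lines share no array, so differences between them are also differences between sets of arrays. In RNA of whole cultures, fewer cells with a transcript and less transcript per cell cannot be told apart. For the integrin clone the printings are given apart, since on the weak arrays only block 39 passed and a mean over all spots there mixes printings.

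In block 39, the printing with the small dye ratio, integrin beta 5 was lower in both DKO lines than in DT40. DKO-R had 11.42 and 12.17 with DOX (cultures A and B) and 11.46 and 11.92 without. DKO-S had 12.55 and 11.79 with DOX and 12.35 and 11.84 without. Each of these DKO-S values takes a reading from a weak array. In culture A the weak array read 13.74 in Cy5 (with DOX) and 14.59 in Cy3 (without). The other DOX array of culture A read 11.35 in Cy3 (with DOX) and 11.88 in Cy5 (without). In culture B the weak array read 11.92 in Cy3 (with DOX) and 12.07 in Cy5 (without). DT40 had 13.49 and 13.16 with DOX and 13.57 and 13.25 without. All 8 DKO extracts were thus below all 4 DT40 extracts, with no overlap, and the DKO-R and DKO-S extracts overlapped with each other. The share of all features separated in this way was not counted. In limma without DOX the difference from DT40 was -1.72 in DKO-R (SE 0.32, adjusted p 0.00632, with 32% of 8382 features passing at 0.15) and -1.31 in DKO-S (SE 0.32, adjusted p 0.0206, with 31.5% of 7575 passing). With DOX it was -1.53 in DKO-R (adjusted p 0.0102, 32.6% passing) and -1.16 in DKO-S (adjusted p 0.021, 47.3% passing).

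With so large a share of all features passing between these lines, a call alone says little about the gene. The integrin value ranked 75 from the lowest of 8382 features between DKO-R and DT40 without DOX, and 157 of 7575 between DKO-S and DT40. Block 39 itself stood low in this comparison, with a median of -0.48 over its 181 features in DKO-R and -0.46 over its 172 in DKO-S, and within the block the integrin clone ranked 5 in DKO-R and 34 in DKO-S. With the printed blocks of every channel set to one median, an alternative chosen after seeing the data, the differences without DOX were -1.34 in DKO-R (adjusted p 0.00583) and -1.16 in DKO-S (adjusted p 0.0122). With the weak arrays left out and any one dye enough for an extract, they were -1.72 in DKO-R (adjusted p 0.0104) and -1.82 in DKO-S (adjusted p 0.00906). The size of the DKO-R difference could not move there, since the weak arrays hold DKO-S alone. In DKO-S without DOX the call was lost when the direct arrays were left out (-0.87, adjusted p 0.172), which leaves its extracts only the DOX arrays. The Cy3 reading of its culture A is then that of the weak array alone (14.59). The size of the DKO-S differences varied with the processing, with -2.59 without DOX and -2.78 with DOX under loess only, and -0.66 with DOX at a confidence of 0.60.

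Within a single dye the direction was the same. Setting DKO-R against DT40 in the same dye, letter and DOX state, block 39 was lower in DKO-R in 8 of 8 comparisons (median -1.99, range -2.30 to -0.48). DKO-S was lower than DT40 in 4 of 4 (median -1.83, range -2.16 to -1.40). Comparisons that use the same arrays are not independent of each other, and the share of all features with 1 sign throughout was not counted.

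Block 1 did not show this. There integrin beta 5 read 13.14 and 11.88 in DKO-R with DOX, 12.95 and 13.80 in DKO-R without DOX, 12.85 in the DKO-S culture A without DOX, the one DKO-S extract measured in both dyes, 12.64 and 12.22 in DT40 with DOX and 13.24 and 12.82 in DT40 without. The extracts of DKO-R and DT40 overlapped. The difference from DT40 without DOX was 0.34 in DKO-R (SE 0.42, adjusted p 0.608) and -0.19 in DKO-S (SE 0.51, adjusted p 0.832), and 0.08 in DKO-R with DOX (SE 0.42, adjusted p 0.922). Within a single dye it was above 0 in 6 of 8 comparisons of DKO-R with DT40 and in 1 of 4 of DKO-S with DT40. With all spots of the clone averaged, integrin beta 5 passed only between DKO-S and DT40 without DOX (-0.90, SE 0.38, adjusted p 0.129).

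**Figure D5:**
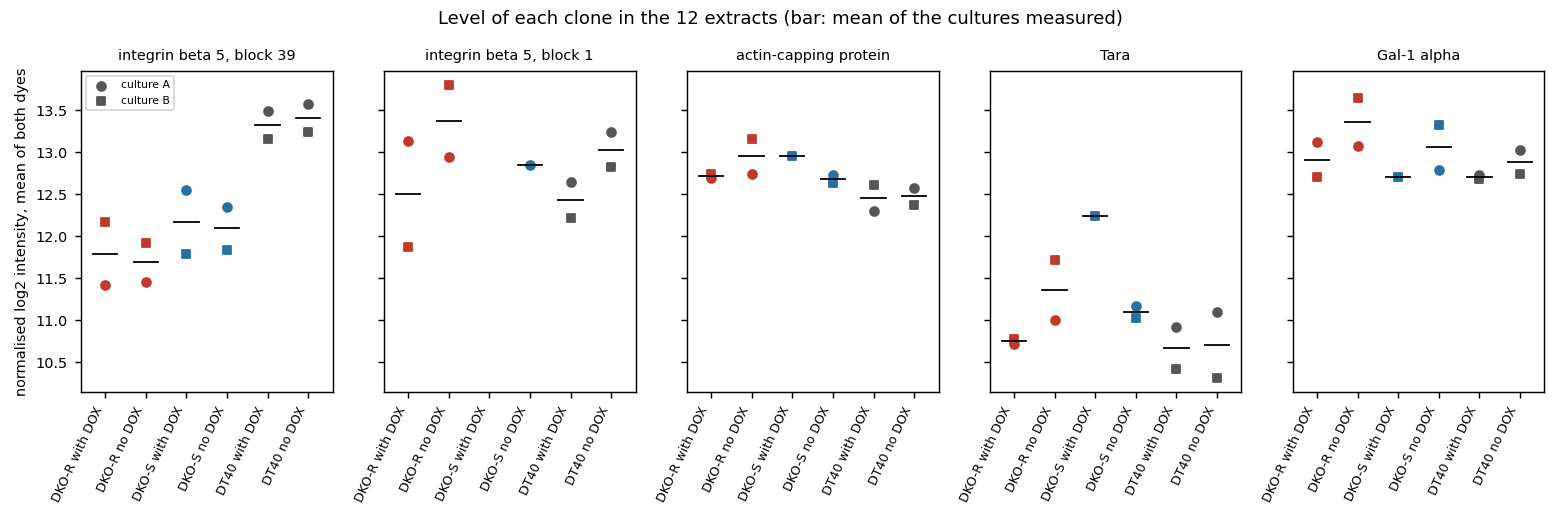
Normalised log2 intensity, mean of both dyes, of the integrin beta 5 printings and of the 3 other clones in each extract (circle, culture A, square, culture B), by line and DOX. Bars are means of the cultures measured. In block 39 the DT40 extracts, at 13.16 to 13.57, lie above all DKO extracts, at 11.42 to 12.55, and no such gap is seen in block 1. The share of all features with such a gap was not counted, and DT40 shares no array with the DKO lines.

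The actin-capping protein had the most even level of the 4 clones. DKO-R had 12.69 and 12.74 with DOX and 12.74 and 13.16 without. DKO-S had 12.95 with DOX, in culture B alone, and 12.73 and 12.64 without, and DT40 had 12.30 and 12.61 with DOX and 12.58 and 12.38 without. With all spots and both dyes averaged, every DKO extract measured was thus above every DT40 extract. The order was narrow, as DKO-S culture B without DOX (12.64) and DT40 culture B with DOX (12.61) show. Both DKO-S extracts of culture B take 1 of their dyes from a weak array. The share of all clones separated in this way was not counted. The order did not hold in block 9 alone, where DKO-R culture A with DOX had 12.51 and DT40 culture A without DOX had 12.55. Within a single dye DKO-R was above DT40 in 6 of 8 comparisons (median 0.29, range -0.26 to 1.49) and DKO-S in 1 of 4 (median -0.45, range -0.72 to 0.12). Without DOX, DKO-R was above DT40 by 0.47 (SE 0.20, adjusted p 0.136 in limma), the only one of the 4 clones to pass at 0.15 between these lines, against 31.8% of 8079 clones. The call of the actin-capping protein was kept under 7 of 17 alternatives. It was lost without DKO-R culture B (0.26), without DT40 culture A (0.57) and without DT40 culture B (0.37). Block 13 alone (0.42, adjusted p 0.164) and a confidence of 0.60 (0.42, adjusted p 0.158) lost it too. So did loess only (adjusted p 0.765), no confidence filter (0.613) and any one dye enough for an extract (0.481). Leaving out the direct arrays (adjusted p 0.166) had the same outcome, as had leaving out the weak arrays with any one dye enough (0.458). Between DKO-S and DT40 without DOX the difference was 0.21 (SE 0.20, adjusted p 0.509), and there 1 of the 4 clones, integrin beta 5 with all its spots, passed against 32% of 7304 clones.

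Tara varied more between extracts than the actin-capping protein and Gal-1 alpha did. DKO-R had 10.72 and 10.78 with DOX and 11.01 and 11.72 without. DKO-S had 12.24 with DOX, in culture B alone, and 11.17 and 11.03 without, and DT40 had 10.92 and 10.42 with DOX and 11.10 and 10.32 without. The one DKO-S extract with DOX stood apart from all others, and it rests on a weak array, where the 2 spots of Tara passed narrowly, at confidences of 0.32 and 0.31, with dye ratios of -2.51 and 0.88. DKO-S culture B without DOX takes its Cy5 reading (12.27) from the same spots. The calls that use the DKO-S extract with DOX follow. With DOX, the log2 difference of Tara between DKO-R and DKO-S was -1.49 (SE 0.38, adjusted p 0.0215, 1 of 4 clones against 36.8% of 3503). Between DKO-S and DT40 it was 1.57 (SE 0.38, adjusted p 0.0127). With the weak arrays left out and any one dye enough for an extract, the difference between DKO-R and DKO-S was 0.36 (adjusted p 0.826) and that between DKO-S and DT40 was -0.28 (adjusted p 0.816). In DKO-S against DT40 with DOX 2 of the 4 clones passed, Tara and the actin-capping protein (0.50, SE 0.25, adjusted p 0.146), against 47.9% of 3478 clones, and under the same alternative the actin-capping protein was at -0.30 (adjusted p 0.652).

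Gal-1 alpha had 13.12 and 12.71 in DKO-R with DOX and 13.07 and 13.64 without. It had 12.71 in DKO-S culture B with DOX, 12.79 and 13.33 in DKO-S without DOX, 12.73 and 12.69 in DT40 with DOX and 13.03 and 12.75 in DT40 without. Both values of DKO-S culture B take 1 dye from a weak array, where 1 spot of the clone passed. DKO-R without DOX was highest on average (13.36 ± 0.40, SD, n = 2) and DT40 with DOX lowest (12.71 ± 0.04), and neighbours in the order overlapped except DT40 without DOX and the lone DKO-S extract with DOX. No line difference of Gal-1 alpha passed. The nearest was that between DKO-R and DT40 without DOX, at 0.47 (SE 0.26, adjusted p 0.241).

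Between DKO-R and DKO-S without DOX, in the separate channels, the log2 difference was 0.21 (integrin beta 5), 0.26 (actin-capping protein), 0.27 (Tara) and 0.30 (Gal-1 alpha), and 0 of the 4 passed (adjusted p 0.674 to 0.879), against 0.224% of 7581 clones. Of these, 785 clones had an unadjusted p under 0.05, none of the 4 among them. The value of integrin beta 5 averages all its spots, and its printings had opposite signs. The difference was 0.53 in block 1, where 1 DKO-S extract was measured, and -0.41 in block 39. Within a single dye on the DOX arrays DKO-R was above DKO-S in 4 of 4 comparisons for the actin-capping protein (0.26 to 0.81). It was so in 3 of 4 for integrin beta 5, Tara and Gal-1 alpha. The share of all clones above 0 in 4 of 4 was not counted. The comparisons use both channels of the 2 DKO-S arrays that were not weak. All 4 clones split by dye. The actin-capping protein had 0.48 and 0.81 in Cy3 and 0.26 and 0.36 in Cy5. The other 3 had 0.80 to 1.68 in Cy3 and -0.39 to 0.12 in Cy5. By printing, integrin beta 5 was above 0 in 2 of 4 in block 1 and in 3 of 4 in block 39. These comparisons set arrays of DKO-R against arrays of DKO-S, while the fit also uses the direct arrays, whose labels oppose those of the DOX arrays for J chain and MAP2K3. Between DKO-R and DT40 with DOX 0 of the 4 passed with all spots averaged, against 32.1% of 7906 clones, of which 2565 had an unadjusted p under 0.05, and the values were -0.73 for integrin beta 5, 0.26 for the actin-capping protein, 0.08 for Tara and 0.20 for Gal-1 alpha.

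The DOX arrays ask what turning off the clathrin transgene does in the DKO lines, with DT40 as the line that has no such transgene. In DKO-R, log2(with DOX/without DOX) was 0.16 and -0.75 in cultures A and B for integrin beta 5 and 0.03 and -0.34 for the actin-capping protein. Tara had -0.06 and -0.95 and Gal-1 alpha -0.07 and -0.79. Culture A was near 0 for 3 of the clones and culture B was below 0 for 4 of 4. In culture B all clones of the adhesion, migration and cytoskeleton list (-1.22 to -0.63) and of the host defence list (-1.16 to -0.30) were below 0 as well. The share of all clones below 0 there was not counted. In limma the mean was -0.29 for integrin beta 5 (SE 0.49), -0.15 for the actin-capping protein (SE 0.17), -0.50 for Tara (SE 0.21) and -0.43 for Gal-1 alpha (SE 0.18). Of the 4 clones 0 passed at 0.05 (adjusted p 0.613 to 0.877), against 0% of 6494 clones. Before adjustment 517 clones had a p under 0.05, among them Tara and Gal-1 alpha.

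The arrays of culture B lay apart in dye ratio. With DOX in Cy5, DKO-R culture B had the lowest dye ratio of the DKO-R arrays for all 4 clones, 0.31 for integrin beta 5, 0.42 for the actin-capping protein, 0.28 for Tara and -0.09 for Gal-1 alpha, whereas its partner with the dyes exchanged had 1.81 for integrin beta 5, 1.09 for the actin-capping protein, 2.19 for Tara and 1.49 for Gal-1 alpha. For integrin beta 5 block 1 read 0.25 and 3.86 on these arrays, and block 39 read 0.37 and -0.23. In block 39 alone the DOX difference of DKO-R was 0.14 (SE 0.20, adjusted p 0.862).

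In DT40 the differences with DOX were -0.36 and -0.27 in cultures A and B for integrin beta 5 and -0.26 and 0.29 for the actin-capping protein. Tara had -0.14 and 0.11 and Gal-1 alpha -0.29 and -0.05. The actin-capping protein and Tara thus had opposite signs in the cultures. The mean was -0.31 for integrin beta 5 (SE 0.49), 0.01 for the actin-capping protein, -0.02 for Tara and -0.17 for Gal-1 alpha. In limma 0 of the 4 passed (adjusted p 0.997 for each), against 0% of 6494 clones, and 391 clones had an unadjusted p under 0.05, none of the 4 among them. The difference between DKO-R and DT40 in the DOX response was 0.02 for integrin beta 5, -0.17 for the actin-capping protein, -0.49 for Tara and -0.26 for Gal-1 alpha, and 0 of the 4 passed (adjusted p 0.856 to 0.998), against 0% of 6493 clones, of which 325 had an unadjusted p under 0.05. DKO-R and DT40 thus were not shown to differ in their response, with intervals for Tara of -1.16 to 0.18 and for the actin-capping protein of -0.72 to 0.39.

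In DKO-S, where every pair holds a weak array, 3 of the clones could be measured in culture B alone. Tara differed by 1.15 with DOX (SE 0.29, adjusted p 0.0346 in limma), 1 of 4 clones against 17.3% of 3153. This is the same pair of narrowly passing spots as above, and the other array of the pair alone had a dye ratio of 1.48. The actin-capping protein had 0.18 (adjusted p 0.625) and Gal-1 alpha -0.78 (adjusted p 0.0714). Integrin beta 5 had -1.90 and 0.82 in cultures A and B with all passing spots, which mix block 39 of one array with both blocks of the other. In block 39 alone its DOX difference was -0.54 (SE 0.20, adjusted p 0.0968), a mean over cultures that differed. Its arrays gave -0.55 and -1.45 in culture A and -0.21 and 0.08 in culture B. The values of -1.45 and -0.21 come from the weak arrays.

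The levels of the clones were then compared across the extracts. Pearson's r over 11 extracts was 0.72 between the actin-capping protein and Tara, 0.53 between the actin-capping protein and Gal-1 alpha, and 0.29 between Tara and Gal-1 alpha. The 11 extracts include DKO-S culture B with DOX, whose level of Tara rests on narrowly passing spots of a weak array. That extract also enters the r of 0.93 given for Tara below. For integrin beta 5 the value of r turned on the printing. Block 1 had r of 0.45 with the actin-capping protein, 0.66 with Tara and 0.86 with Gal-1 alpha over 9 extracts, and block 39 had -0.67, -0.40 and -0.44 over 11 extracts. The dye ratios of the arrays went together more closely, with r over 12 arrays of 0.94 for Tara and Gal-1 alpha, 0.84 and 0.83 for the actin-capping protein with these, and 0.38 to 0.67 for integrin beta 5 with the others. These are descriptions over extracts and arrays that share hybridisations. The clones most like each in level over 10 or 11 extracts were pat.pk0027.a12 (r 0.85) for integrin beta 5, whose level here averages all spots and so mixes its printings on the weak arrays, pat.pk0025.d3 (0.92) for the actin-capping protein, pat.pk0070.g11 (0.93) for Tara and ChEST104D11 (0.89) for Gal-1 alpha. Of the 12 clones most like the 4, 7 had IDs beginning with pat and 3 with pgn1c, and 1 of the 3 is KIDINS220, for the actin-capping protein (r 0.89).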

How the data were processed

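Per the labels, total RNA was labelled with Cy3 and Cy5 and hybridised to EST arrays, and the authors scanned the slides and took spots with BlueFuse for Microarrays 1.1 (build 2765). They deposited a channel intensity per spot and dye, not normalised, together with a confidence per spot, a fraction from 0 to 1. The file headers number the channels, and the dyes come from the labels. The authors also deposited a table of 12861 log2 values of Cy5 over Cy3, 1 per clone position, centred near 0 (array medians -0.31 to 0.23) and not turned for the dye swaps. It was used as an alternative only, and which spots of integrin beta 5 it averages stays unknown.

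A spot needed a confidence of at least 0.30. Each array's log2(Cy5/Cy3) values had their median subtracted and were averaged by clone. For extract ratios, the sign was set so that the first-named extract was on top, and the arrays of a dye swap were averaged where both measured the clone. Dye ratios were averaged over the swap with no change of sign. For levels, log2 intensities were normalised by loess (span 0.3) within and Aquantile between arrays, and each extract was averaged over both dyes. limma 3.58.1 in R 4.3.3 (lmFit, eBayes) was fitted across all clones, and clones with under 2 residual degrees of freedom were left out. Adjusted p values (Benjamini-Hochberg) passed under 0.15 between lines, the rate the methods use, and under 0.05 otherwise. The single direct pair takes its spread from the DOX pairs. The fits were also run on simulated data with independent noise, in which a dye effect of a clone was the same on every array. The dye ratios of the 4 clones varied between arrays, and the simulation did not cover that.

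Arrays of one pair of extracts were counted as 1 replicate, and 2 cultures per line limit the precision. With signs so set, ratios of both arrays of a pair correlated between -0.37 and 0.13 across clones. The named clones were fixed as the 4 above, MAP2K3 and J chain as a scale, the lists of 5 and 4 further clones, the cell type markers, and the 3 clones most like each in level. These clones and lists were chosen with earlier results of these data known. Gene names are those of the study, with RefSeq symbols from GRCg7b. No sequence or position of the clones was used here.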

Additional observations from a re-analysis of the deposited data

Results flagged for a closer look

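Of 22 groups of 4 to 10 values looked at for these clones, array values or means of DOX pairs, 3 held an array far from the others. This was measured as its gap to the nearest array over the whole range of the group. For independent values chance gives this in about 1 group in 20. These groups hold dye swaps of the same extracts, and clone means overlap with their printings, so that this rate need not hold here. The dye ratio of the actin-capping protein was 0.4201 on the DKO-R array of culture B with DOX in Cy5, and the next of the 4 DKO-R arrays had 1.0934. The dye ratio of integrin beta 5 in block 39 was -0.2336 on the DKO-R array of culture B with DOX in Cy3, and the next of 4 had 0.2689. The same printing had 0.6433 on the DT40 array of culture A with DOX in Cy3, and the next of 4 had 0.4068. Both DKO-R values lie on the arrays of culture B.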

How the results depend on the processing

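Of 552 values of single clones under the alternatives, 452 kept their direction and their side of the threshold, 51 lost a call, 16 gained one and 33 changed sign. Of 189 values with 1 culture left out, 164 were kept. This count includes values that leaving out a culture did not move. On the direct arrays the clones described here kept their main value throughout (Tara -0.056). So did Tara, Gal-1 alpha and the actin-capping protein in the DOX responses of DKO-R and DT40 (Gal-1 alpha in DKO-R -0.43). For these values, direction and size were not tested by leaving out a culture. The cause of each change below was not tested, except where each array was used alone. The number of arrays limits the precision, and the 2 weak arrays limit every DKO-S value. Printed blocks taken apart, leaving out the weak arrays and setting printed blocks to one median were chosen after seeing the data. In the separate channels, values without the weak arrays also let any one dye suffice for an extract, so that both choices moved at once.

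Between DKO-R and DKO-S on the direct arrays, the array with DKO-R in Cy3 alone gave -2.18 for Gal-1 alpha and -1.85 for integrin beta 5 and called 1360 clones, and the array with DKO-R in Cy5 alone gave 2.18 for Tara and 1.23 for the actin-capping protein and called 1400. The actin-capping protein also turned to 0.0092 with centring per printed block and to 0.066 in its second block. The 8 calls over all clones became 35 with centring per block, 18 at a confidence of 0.60, 13 with loess, 5 at the other threshold, 29 without both DKO-S pairs, 0 with the deposited table and 0 with no confidence filter (0 to 29 with 1 culture left out).

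With the separate channels, Tara between DKO-R and DKO-S with DOX turned to 0.33 with loess only and 0.36 without the weak arrays. Tara between DKO-S and DT40 with DOX turned to -0.042 with loess only and -0.28 without the weak arrays, and the actin-capping protein there to -1.15 with loess only, -0.35 with no confidence filter, -0.16 with any one dye enough and -0.30 without the weak arrays. Integrin beta 5 between DKO-R and DT40 turned to 0.34 without DOX and 0.076 with DOX when its first printed block was taken. In block 1, DKO-R against DT40 without DOX ranged over -0.083 (without DKO-R replicate 2) to 0.77 (without DKO-R replicate 1) when 1 culture was left out. With DOX it ranged over -0.56 (without DKO-R replicate 1) to 0.71 (without DKO-R replicate 2), with -0.14 without DT40 replicate 2, and turned to -0.0055 with quantile normalisation. In block 1, DKO-S against DT40 without DOX turned to 0.26 with no confidence filter and 0.074 with blocks set to one median, and ranged over -0.40 to 0.023 with 1 culture left out (0.023 without DT40 replicate 1). In block 39 the differences from DT40 kept their sign throughout, and DKO-R with DOX lost its call with loess only (-1.54, adjusted p 0.169). DKO-S with DOX (-1.16) moved to -0.66 at a confidence of 0.60, to -2.78 with loess only, to -0.78 without DKO-S replicate 2, to -0.78 with blocks set to one median and to -1.82 without the weak arrays, and DKO-S without DOX (-1.31) to -2.59 with loess only and -0.87 without the direct arrays.

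For DOX, the actin-capping protein in DKO-R turned to 0.027 with centring per block, and integrin beta 5 in DKO-R to 0.14 in its second block and 0.16 without DKO-R replicate 2 (-0.75 without DKO-R replicate 1). Tara in DKO-S turned to -0.39 with no confidence filter and -0.087 with the deposited table. The actin-capping protein in DT40 turned to -0.060 with centring per block, -0.027 with loess, -0.032 with the deposited table and -0.066 in its first block. The dye ratio difference of integrin beta 5 between direct and DOX arrays turned to -0.024 with the deposited table.

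Counts over all clones moved as follows. Calls between DKO-R and DKO-S without DOX (17) became 37 with any one dye, 4 at a confidence of 0.60, 0 with loess only, 0 with no filter, 26 with blocks set to one median, 7 with quantile normalisation and 1001 without the direct arrays (2 to 262 with 1 culture left out). With DOX (1290) they became 704 with any one dye, 288 at 0.60, 2594 with loess only, 4754 with no filter and, beside the 704 with any one dye, 490 with the weak arrays left out as well (306 to 1126). Between DKO-R and DT40 without DOX (2571) they became 1284 at 0.60 and 320 with loess only (1190 to 2766), and with DOX (2535) 1287 and 363 (1112 to 2697). Between DKO-S and DT40 without DOX (2334) they became 930 at 0.60, 540 with loess only and 1359 without the direct arrays (899 to 2365), and with DOX (1666) 354 at 0.60 and 5037 with no filter (295 to 1591). DOX calls in DKO-S (544) became 27 at 0.60, 3162 with the deposited table, 3651 with no filter and 1133 at the other threshold (0 to 539). Clones with a dye ratio past 0.05 (230) became 0 with the deposited table, 2 with no filter and 498 at the other threshold (125 to 277), the 4 clones losing their calls under both of the first, and the difference between direct and DOX arrays gave 21 at 0.60 where none passed before.

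Whether the culture letters pair the samples between lines was not settled. Across clones, deviations of the DOX pairs of the same letter correlated at 0.001 between DKO-R and DT40 (6486 clones). They correlated at -0.17 between DKO-R and DKO-S (165 clones) and -0.05 between DKO-S and DT40 (164 clones). An effect of the letter shared by both extracts of a DOX pair cancels in its ratio, so these values cannot show it. With the culture letter as a replicate block, calls on the direct arrays became 0, those between DKO-R and DKO-S without DOX 11 and DOX calls in DKO-S 0. Under that block the actin-capping protein lost its call between DKO-S and DT40 with DOX (0.45).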
